A study of Zea mays with 157 samples.

Results

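In the maize inbred B73, 11 of 39513 genes in the mRNA table had a 1 cm tassel value of 5 or more that was at least 5 times the value in every other tissue. They make up 0.0278% of the genes, while 11526 genes reached 5 in that library. The genes were chosen by these B73 mRNA values, so their B73 levels are a description and were not tested. The study sequenced mRNA and circRNA of 26 tissues or stages from greenhouse plants of the F1 of B73xMo17 and of the inbreds Mo17 and B73, all without special treatment. Every tissue of every line is listed as 1 library. It was made by mixing equal amounts of RNA from 3 separately extracted samples of 5 to 10 plants. The tables therefore hold no spread between plants. The 25 other tissues comprise the shoot apical meristem (SAM) at V1, V3 and V4, the inflorescence, the 2 mm tassel, ears of 2 mm, 5 mm and 1 cm, husk and other leaves, roots, stem, internode, embryo and endosperm. Each is a whole organ or a part of one, in which more cells of a type and more RNA per cell cannot be told apart.

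The tassel is the male inflorescence of maize. It forms at the shoot tip when the apical meristem stops making leaves, first branches, and then bears spikelets whose florets form stamens and, within the anthers, pollen. The ear, the female inflorescence, grows from an axillary bud and passes through similar early stages before pistils outgrow stamens. A circRNA is a closed ring of RNA formed when a downstream splice site joins an upstream one, so its reads belong to the gene that hosts it. The deposited tables give genes as identifiers without names, and no identifier of the 11 matched the reference gene list, so neither roles nor sequences are given and markers of tassel cell types could not be looked up.

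The 1 cm tassel library of B73 stood apart from the other meristem, ear and tassel libraries of its line. Its values summed to 337628, against 422177 to 684084 in those libraries, and its median-ratio scaling factor was 0.81, against 1.31 to 2.04. Over all B73 tissues the sum was the lowest, followed by 393026 in the stem. The factor was not extreme over all B73 tissues, with 0.47 in the third leaf and 0.88 in the embryo. The corresponding factors were 1.40 for the F1 tassel, against 1.52 to 1.96 in the other F1 libraries of that class, and 1.54 for the Mo17 tassel, against 1.53 to 2.11. Across 27508 unpaired B73 genome genes the F1 tassel matched the B73 1 cm ear best (Spearman 0.936), ahead of the B73 1 cm tassel (0.932, rank 3 of 26). In the opposite direction the B73 tassel matched the F1 tassel best (0.932), followed by the F1 inflorescence at 0.910. Over paired genes, which are another set, Mo17 and B73 tassels were each other's best match at 0.925 (10912 genes). F1 and Mo17 tassels were so at 0.968 (11072 genes). With B73 values scaled, 20 genes met the rule, among them 10 of the 11, with Zm00001d003304 left out. Whether the scale of this library took part in the choice of the genes was not tested.

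Of the 11 genes, 10 have identifiers of the B73 genome alone and are listed in the B73 and F1 tables. Only Zm00001d003304 is paired with a Mo17 gene, Zm00014a036981, while 28.1% of the genes in the B73 table are paired. Mo17 values therefore exist for a single member. The mRNA unit of the B73 and F1 tables is not named by a label or header, Mo17 values are in TPM, and each table was normalized separately. Levels of different lines are set side by side here on that condition.

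The 1 cm tassel was the highest of the 26 F1 tissues for 7 of the 11 genes, a share of 63.6%, against 1.48% of all 64379 genes in the F1 table. In B73 it was so for all 11 by the rule, and for 2.14% of the table. After median-ratio scaling the number was also 7, against 2.28% of all genes, and 6 genes were in both sets. The whole rule was met in F1 by 2 genes, Zm00001d014840 and Zm00001d050389, against 0.00777% of the F1 table. These F1 libraries had no part in the choice, but each value is listed for 1 library, without replicate values to check it. The decimals of values of unpaired genes are those of means of 3 values, which no source used here names. In each line, the next-highest tissue was a meristem, ear or tassel for 6 genes, but the sets differed. Zm00001d014840 was among them only in F1 and Zm00001d022706 only in B73. Besides the 1 cm tassel, 8 of the 26 tissues belong to that class. The same share over all genes was not computed, so these counts are a description. The heat map of the genes by tissue and the plot of the tassel against the next tissue show both patterns.

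**Figure D1:**
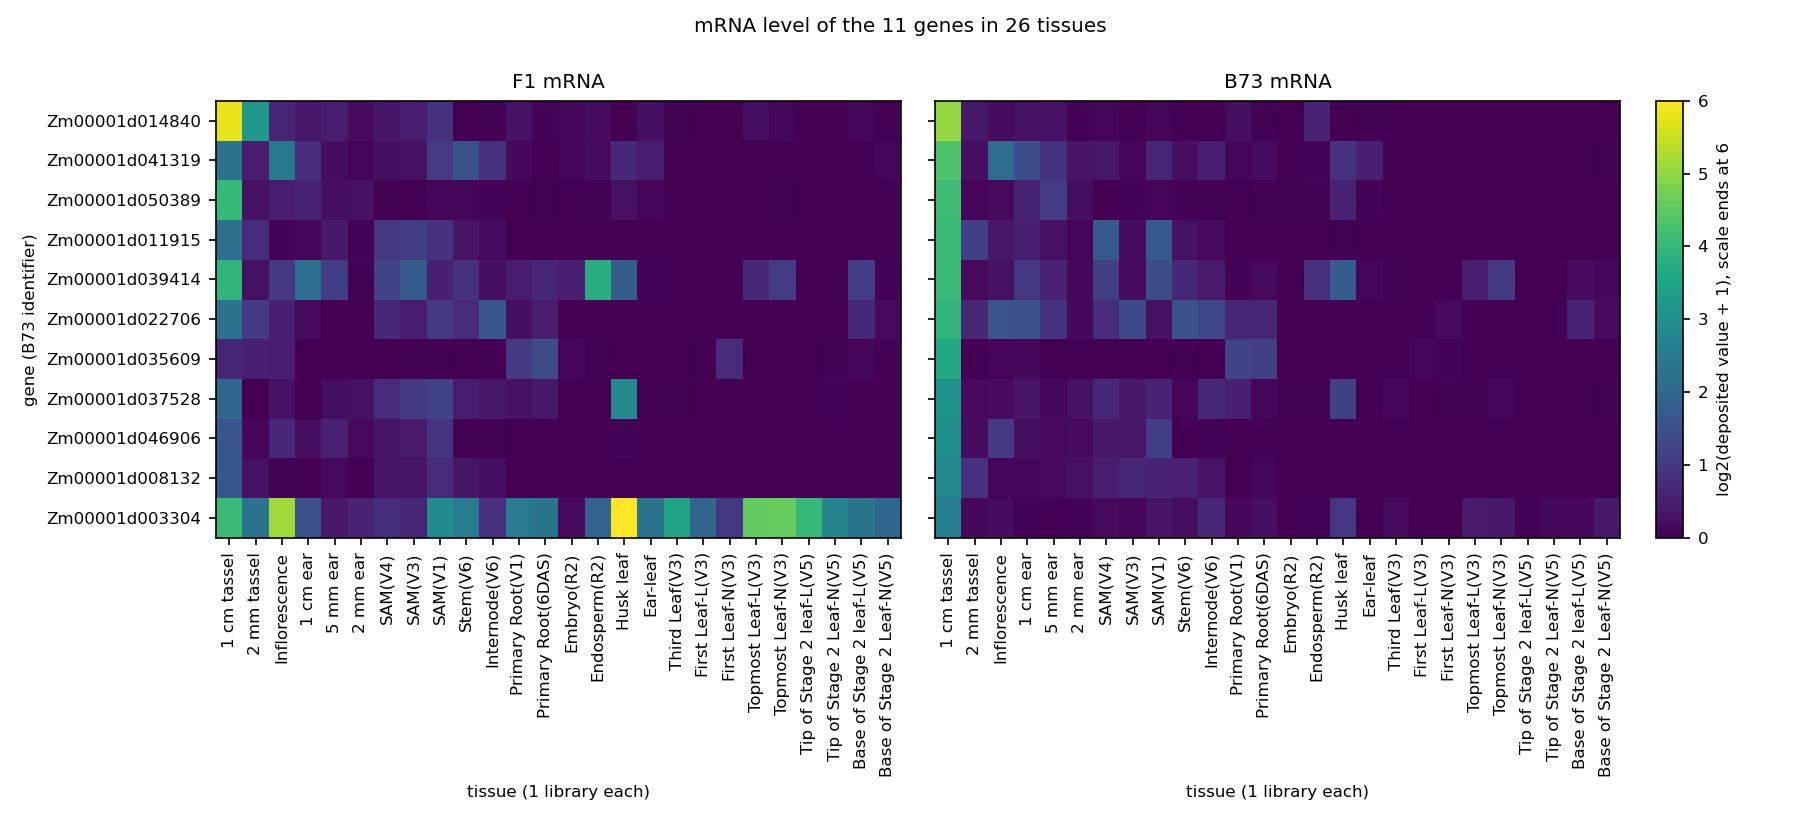
mRNA level of the 11 genes (rows, B73 identifiers) in 26 tissues (columns, 1 library each) in F1 on the left and B73 on the right, as log2 of the deposited value + 1, with the colour scale ending at 6. In B73 the 1 cm tassel column stands alone by the rule, while in F1 the rows differ, with 54.97 for Zm00001d014840 and 0.555 for Zm00001d035609.

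**Figure D2:**
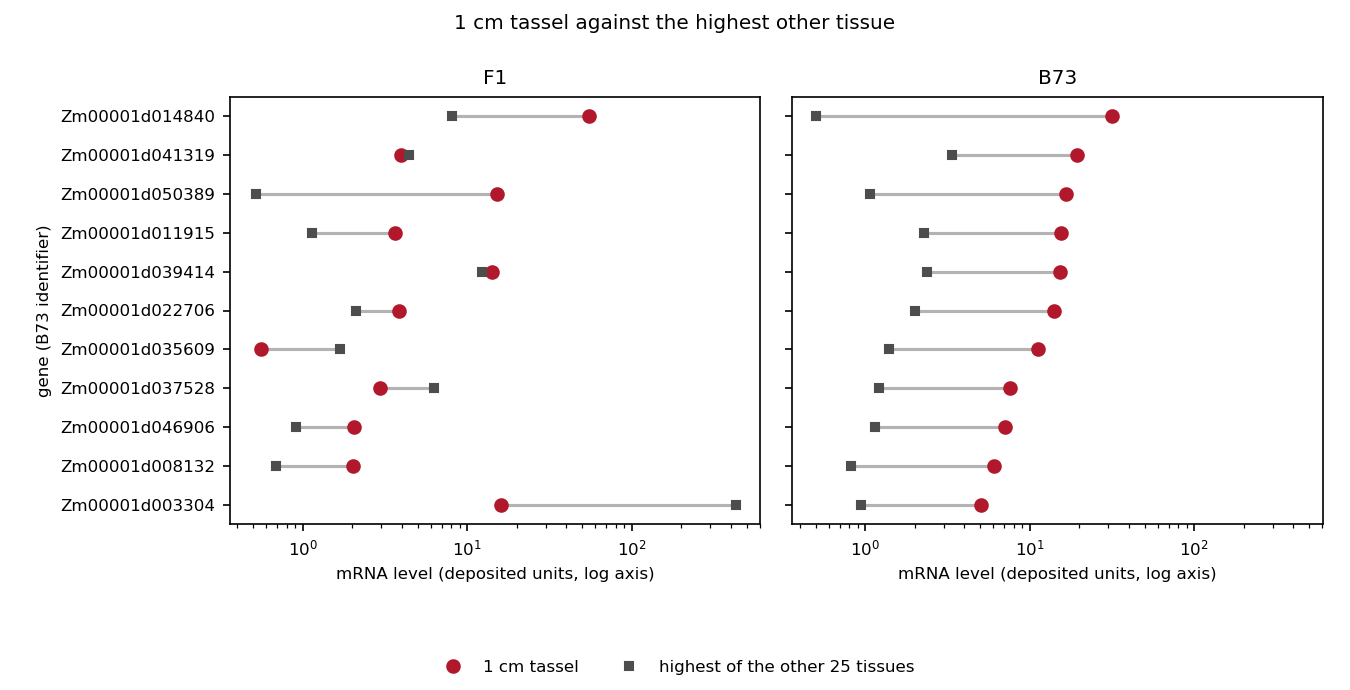
Level of each gene (rows) in the 1 cm tassel (red circles) and in the highest of the other 25 tissues (grey squares), in F1 on the left and B73 on the right, in deposited units on a log axis with 1 library per point. The circle lies to the right for 7 genes in F1 and, by the rule, for all 11 in B73.

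Zm00001d014840 had the highest B73 value of the 11 and the largest gap to the next tissue. In F1 it stood at 54.97 in the 1 cm tassel, against 8.13 in the 2 mm tassel, 0.529 in the inflorescence and a median of 0.0820 over the other 25 tissues. In B73 it stood at 31.6 in the 1 cm tassel, against 0.306 in the 2 mm tassel, 0.121 in the inflorescence and a highest other value of 0.504 in endosperm. The tassel value was thus 6.76 times the next tissue in F1 and 62.6 times in B73. No other tassel, ear or meristem library reached 1 in either line, apart from the F1 2 mm tassel. Of the 26 tissues, 5 in F1 and 11 in B73 were listed at 0.

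On deposited values, Zm00001d050389 was the closest in level between the lines among the genes that met the rule in both. Its 1 cm tassel value was 15.2 in F1 and 16.6 in B73. The next tissue was the 1 cm ear in F1 at 0.520, and the 5 mm ear in B73 at 1.06, followed there by the husk leaf at 0.517. The ratio to the next tissue was 29.3 in F1 and 15.6 in B73. The 2 mm tassel held 0.217 in F1 and 0.0702 in B73, so the younger tassel did not share the level of the older one in either line. Scaled within each line, the 1 cm tassel value of Zm00001d050389 was 10.9 in F1 and 20.6 in B73. That of Zm00001d014840 was 39.2 in both lines, so which gene was closest depended on the scale.

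A pair of genes had the inflorescence as next tissue in B73. Zm00001d041319 stood at 3.96 in the F1 tassel and 4.41 in the F1 inflorescence, whereas B73 had 19.4 in the tassel and 3.34 in the inflorescence. The inflorescence level was thus similar in both lines, and it was the tassel value that was 0.204 times as high in F1 as in B73. Scaling put the F1 tassel first, at 1.05 times the inflorescence. Zm00001d022706 stood at 3.85 in the F1 tassel, against 2.10 in the internode, 1.04 in the 2 mm tassel and 0.444 in the inflorescence. In B73 it stood at 14.1 in the tassel, against 2.02 in the inflorescence, 1.86 in the stem and 1.84 in the 1 cm ear, and 6 of 26 tissues reached 1.

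Another 3 genes had a shoot apical meristem as next tissue in F1. Zm00001d011915 stood at 3.62 in the F1 tassel, against 1.14 in SAM(V3), 0.952 in SAM(V4) and 0.811 in SAM(V1). In B73 it stood at 15.5 in the tassel, against 2.26 in both SAM(V1) and SAM(V4), 1.20 in the 2 mm tassel and 0.156 in SAM(V3). It was listed at 0 in every F1 leaf, and its highest B73 leaf value was 0.0279. Zm00001d046906 stood at 2.05 in the F1 tassel and 0.908 in F1 SAM(V1), against 7.04 and 1.15 in B73, where the inflorescence held 0.998. Zm00001d008132 stood at 2.02 in the F1 tassel and 0.686 in F1 SAM(V1), against 6.02 and 0.493 in B73. Its B73 next tissue was the 2 mm tassel at 0.818, and every leaf of both lines was listed at 0. The tassel was the highest F1 tissue for all 3 genes, at 3.18, 2.26 and 2.95 times the next, below the fold of the rule.

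Zm00001d039414 and Zm00001d037528 shared the husk leaf, the modified leaf around the ear, as next tissue in B73. Zm00001d039414 stood at 14.1 in the F1 tassel, close to the 12.3 of F1 endosperm, with 3.60 in the 1 cm ear and 2.42 in the husk leaf. In B73 it stood at 15.4 in the tassel and 0.762 in endosperm, so on deposited values the lines had like tassel levels and unlike endosperm levels. After scaling within each line, F1 endosperm came first and the F1 tassel stood at 0.911 of it. The scaled tassel values were 10.1 in F1 and 19.1 in B73. Zm00001d037528 stood at 2.96 in the F1 tassel, below the 6.34 of the F1 husk leaf, whereas B73 had 7.55 in the tassel and 1.22 in the husk leaf. It reached 1.35 in SAM(V1) and 1.04 in SAM(V3) in F1, against 0.520 and 0.324 in B73.

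Zm00001d035609 was the only one of the 10 B73 genome genes below 1 in the F1 tassel. There it stood at 0.555, rank 4 of 26 tissues, while the roots held 1.69 at 6DAS and 1.02 at V1. In B73 it stood at 11.2 in the tassel, with 1.39 in the root at V1 and 1.20 in the root at 6DAS, and 16 tissues were listed at 0. The root values were thus close in the lines, and the tassel value was 0.0494 times as high in F1 as in B73.

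Zm00001d003304, the paired gene, was lowest of the 11 in the B73 tassel and was highest in the husk leaf in the other lines. Its 1 cm tassel value was 16.1 in F1, 0.690 in Mo17 and 5.06 in B73. Its husk leaf value was 432 in F1, 84.2 in Mo17 and 0.944 in B73. The tassel therefore had rank 5 in F1, behind the husk leaf and the inflorescence (34.3) among others, and rank 4 in Mo17, where the root at 6DAS held 2.38. Of paired members with the tassel as highest Mo17 tissue there were 0 of 1, against 3.98% of all Mo17 genes (4.02% after scaling), and 0 of 1 met the rule in Mo17, against 0.0372%. In F1, 19 of 26 tissues reached 1, against 3 in Mo17 and 1 in B73, and the F1 value was above both inbreds in 25 of 26 tissues. The same share over all paired genes was not computed. Over 3496 paired genes in the members' range of B73 tassel values and above 0 in the F1 tassel, the median F1 tassel value was 2.32 times that of B73. The decimals of F1 values of paired genes are those of means of 6 values, and no source used here names the 6 values. What part this has in the F1 level was not tested. The plot of this gene by tissue and line shows the husk leaf peaks in F1 and Mo17.

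**Figure D3:**
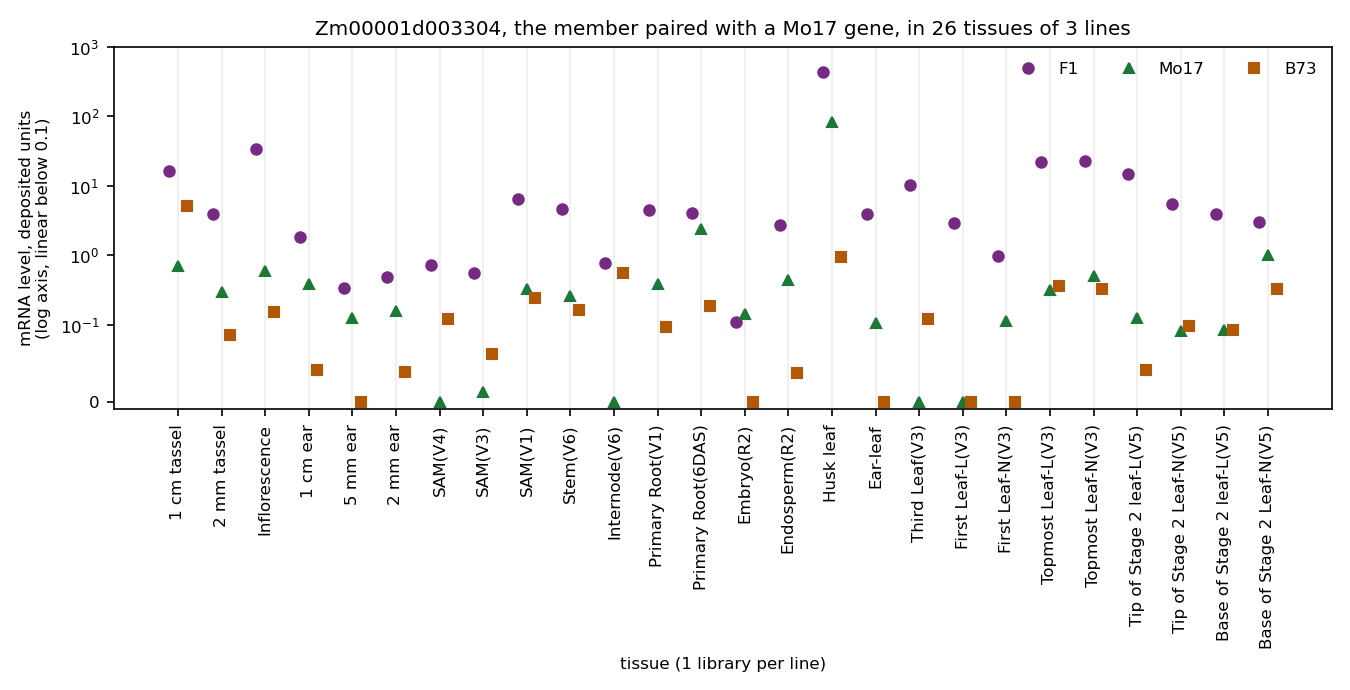
Level of Zm00001d003304 (vertical axis, deposited units, log above 0.1 and linear below) in 26 tissues (horizontal axis) of F1, Mo17 and B73, with 1 library per point. The husk leaf is highest in F1 at 432 and in Mo17 at 84.2, and the 1 cm tassel is highest in B73 at 5.06.

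At the 1 cm tassel, 9 of the 11 genes had lower deposited values in F1 than in B73. The other 2 had higher ones, Zm00001d014840 at 1.74 times and Zm00001d003304 at 3.18 times. For comparison, 6216 unpaired B73 genome genes in the same range of B73 tassel values were taken, members included. Genes at 0 in the F1 tassel were left out. The median F1 over B73 value of the 6216 was 0.38 on the log2 scale, with quartiles of 0.04 and 0.61. For the 10 unpaired members the median was -1.68, with a range of -4.34 to 0.80. For 3496 paired genes taken in the same way the median was 1.21, and the paired member stood at 1.67. The members were picked for a high value in that B73 library and the other genes were not, so the lower median is a description and was not tested.

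The step at the threshold was small. The genes just inside the fold of 5 were Zm00001d003304 (5.36), Zm00001d041319 (5.79) and Zm00001d046906 (6.11). Just outside stood Zm00001d003009, with 37.6 in the tassel and a ratio of 4.97 to the 5 mm ear, Zm00001d036692, with 11.9 and a ratio of 4.94 to the inflorescence, and Zm00001d044986, with 13.8 and a ratio of 4.33 to the embryo. Of genes that passed the fold but missed the minimum, the nearest were Zm00001d026740 at 4.77, Zm00001d008149 at 4.44 and Zm00001d026731 at 3.75. Among genes with a B73 tassel value of 5 or more and the tassel as highest tissue, the share that kept the tassel as highest in F1 was 24.3% of 144 at a B73 ratio of 1 to below 2. It was 53.3% of 15 genes at 2 to below 3, 50% of 12 at 3 to below 5, and 63.6% of the 11.

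The same rule applied to each B73 tissue in turn found 647 genes, and the tassel was a small source among them. Embryo gave 251 genes, endosperm 168 and husk leaf 143, while 11 tissues, among them all ears and all meristems, gave 0. Of the tassel genes, 18.2% met the rule again in F1, against 73.7% of the embryo genes, 63.1% of the endosperm genes and 76.9% of the husk leaf genes. The tissue was highest in F1 for 63.6% of the tassel genes, against 96.8% for embryo and 100% for both endosperm and husk leaf. Of tissues with 10 or more genes, the internode came closest to the tassel, with 0% and 50% of 12 genes. These shares compare single libraries, and the differences between tissues were not tested.

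**Figure D4:**
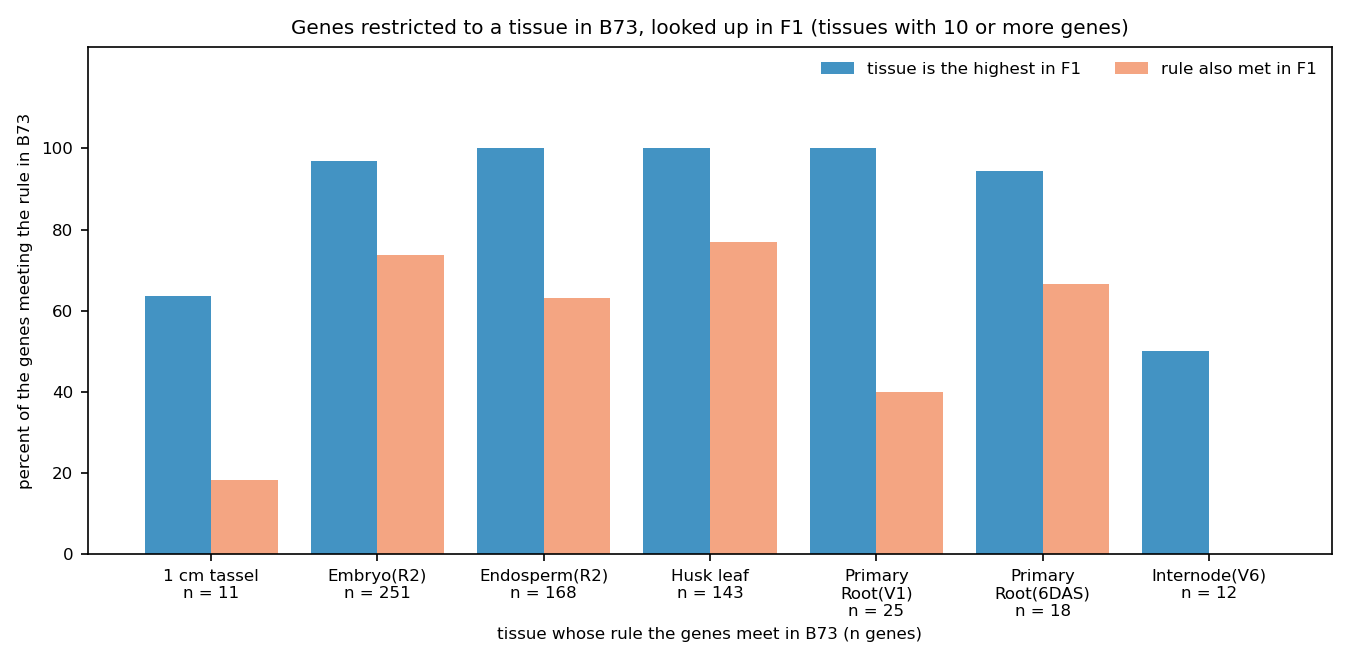
For each tissue with 10 or more genes meeting the rule in B73 (horizontal axis, n genes), the percent for which it is the highest F1 tissue (blue bars) and the percent that meet the rule in F1 (orange bars). The 1 cm tassel stands at 63.6% and 18.2%, against 96.8% and 73.7% for embryo.

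Tests could use only libraries that the rule had not used. The Mo17 and F1 tassels were first compared with the 50 libraries of the other tissues over 9419 paired genes. The fit used limma on log2(scaled value + 1), with line as a term and none for tissue. Each other tissue entered once per line and was counted as separate libraries. The SEs, intervals and p-values of this fit and the next thus rest on the spread between unlike tissues. They hold no spread between tassels of the same line. In that fit 12 genes (0.127%) were higher and 0 lower in the tassel at an adjusted p of 0.05, with 508 higher and 113 lower at an unadjusted p of 0.05. The 12 became 2 without the F1 tassel library and 1 without that of Mo17. The single paired member, Zm00001d003304, did not pass, with a log2 difference of 0.48 (SE 1.22, 95% interval -1.97 to 2.92, limma adjusted p = 0.855). The difference was -0.063 without the F1 tassel library and 1.01 without that of Mo17. Against only the 16 other meristem, ear and tassel libraries, 95 of 8283 genes (1.15%) were higher and 48 (0.58%) lower. These became 22 and 18 without the F1 tassel library, and 1 and 0 without that of Mo17. Zm00001d003304 again did not pass, at 1.53 (SE 0.855, interval -0.27 to 3.33, limma adjusted p = 0.343).

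The F1 libraries alone were then fitted over all genes, the 1 cm tassel against the other 25 tissues, a comparison chosen after the data were seen. Only genes that reached 1 in 3 or more libraries entered, which left 42692 genes and 3 of the 11, since the others reach 1 in fewer F1 tissues after scaling. In that fit 2 genes (0.00468%) were higher and 0 lower, with 381 and 4 at an unadjusted p of 0.05. A gene that is high in the tassel alone cannot pass this filter, so only members with other high tissues entered, and their result says nothing of the other 8. None of the 3 passed. Zm00001d039414 stood at a log2 difference of 2.77 (SE 0.827), Zm00001d041319 at 1.62 (SE 0.479) and Zm00001d003304 at 1.03, each with a limma adjusted p of 0.913. The tassel side is 1 library, taken to vary like the other tissues.

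Without that filter, the same fit over 64379 genes listed 300 (0.466%) as higher, among them 6 of the 11. The log2 differences of the 6 were 5.07 for Zm00001d014840, 3.49 for Zm00001d050389, 1.71 for Zm00001d011915, 1.67 for Zm00001d022706, 1.22 for Zm00001d008132 and 1.21 for Zm00001d046906. Their standard errors, from 0.109 to 0.475, are the spread between different tissues that lie at or near 0, and no spread between tassel samples enters them. The number of members listed thus followed the filter, at 6 without it and 0 with it, and is no measure of replication, so p-values are not given. The other 5 genes had an F1 tissue close to or above the tassel, as described above for Zm00001d041319, Zm00001d039414, Zm00001d037528, Zm00001d035609 and Zm00001d003304.

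None of the 11 genes hosts a catalogued circRNA. In the deposited catalogues 80836 circRNAs lie on 13140 B73 genome hosts and 64685 on 12098 Mo17 genome hosts. Of all genes in the B73 mRNA table, 33.2% host at least 1, and 6597 of the 9626 genes within the members' range of B73 tassel levels do (68.5%). Of the genes that meet the same rule in another tissue, 139 of 636 host one (21.9%). The table of back-splice reads named for the 1 cm tassel, with 13426 reads over 2539 circRNAs of 1692 genes, also lists none of the 11. The 79239 circRNAs in the F1 table took their hosts from the same list as the catalogued ones. That none of the 11 hosts one of them thus follows and is no separate check.

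A deposited table of linear reads named for the 1 cm tassel gives whole counts, with no line or sample named. Its line and number of libraries are therefore not settled. Nor is its organ, because the labels hold 1 total RNA library and call it 1 cm ear of B73. Only 1134385 of the 101479066 entries of the table (1.12%) lay in its 46272 genes, which limits what can be detected. A further 81.8% were counted as outside features, and the reason was not tested. The values below are shares of that small part, so they are uncertain as levels of expression. With 1 or more reads were 9 of the 11 genes, against 41.9% of all genes listed. The share among genes of like B73 tassel level was not computed. Zm00001d050389 had 246 reads, or 217 CPM, its share of all reads in genes (exact 95% Poisson interval 191 to 246, counting error only), above 98.9% of the genes. Zm00001d041319 had 44 reads, or 38.8 CPM (28.2 to 52.1). A further 6 genes had 6 to 16 reads, and Zm00001d022706 had 1. Zm00001d014840, which had the highest tassel value of the 11 in F1 and in B73, had 0 reads, as did Zm00001d008132. A count of 0 allows up to 3 counts, or 2.64 CPM, and the exact interval of the other genes reaches 3.25 CPM at 0. Across the 18794 genes with 1 or more reads that are also in the B73 mRNA table, the linear counts matched the B73 1 cm tassel best, although weakly (Spearman 0.168). The inflorescence followed (0.132), and the 1 cm ear stood at 0.119.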

How the data were processed

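The members and lists were chosen with earlier results of these data known. Per the submitters' processing notes, the tools were HISAT, StringTie, TopHat and SAMtools, and the build was B73 RefGen_v4; the order of the steps and the normalization are not given in the sources used here. The B73 and F1 mRNA tables were deposited as an abundance signal whose unit is not named, with column sums of 337628 to 694778 and 1147180 to 1653240. The deposited Mo17 mRNA values were read as TPM, with sums of 1000010 to 1000070. The depth in reads of these libraries is unknown. Of the deposited F1 values of unpaired B73 genome genes, 98.6% were whole in the last of 6 decimals after multiplication by 3 (tolerance 0.02), as for means of 3 values. The shares were 98.7% for unpaired and 99.2% for paired genes in B73, and 98.9% and 99.2% in Mo17. For paired F1 genes the share was 52.4% with 3 and 99.6% with 6, as for means of 6 values. No source used here names the 3 or the 6 values, so how they relate to the 1 library listed per tissue is not known. The deposited circRNA tables hold RPM, scaled to the reads of a library, and were used only for the host genes. The back-splice and linear tables were deposited as counts per the file headers, and of the 101479066 entries of the linear one, 1.12% lay in genes. The others were left out as outside features (81.8%), not unique (10.5%), unaligned (5.04%), of low quality (1.55%) or ambiguous (0.00696%).

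Genes were joined to Mo17 through the deposited list of paired genes, of which 11114 are in the B73 table. Each library was scaled by its median ratio to the mean log profile, taken from the genes that reach 1 in all libraries of the fit. They were compared as log2(value + 1) by limma 3.58.1 (R 4.3.3), using the trend option, and p-values were adjusted after Benjamini and Hochberg over all genes tested, after a filter that asked for a value of 1 in 3 or more libraries. Fold changes on that scale understate the change of low genes. Data were simulated for the Mo17 and F1 fit (9419 genes). There 44% of changes of 2 and 82% of changes of 4 on the log2 scale were called. For the F1 fit (42692 genes) these shares were 14% and 52%. In each simulation 6 unchanged genes were called as well. The simulated noise was normal and independent for each gene and library, so tissues shared no pattern between genes or lines. Real tissues may share one, so these shares do not give the power of the fits on the real data. Tables were made with Python 3.11.15, pandas 2.3.3 and numpy 2.4.6. Every member is named, since the rule for naming genes covers more genes than the module holds. Lists of anther, meiosis, floral organ, meristem, ear, leaf and pollen genes, held as symbols, were not used because 0 identifiers matched. The alternatives tried were other thresholds, scalings, pseudocounts and filters, and leaving out a library. The planned fit of circRNAs summed by host was not run, since no member hosts a circRNA of the deposited catalogues or tables.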

Additional observations from a re-analysis of the deposited data

How the results depend on the processing

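The number of members, 11, became 21 with a minimum of 1, 7 with a minimum of 10, 23 at 3 times the next tissue, 2 at 10 times and 20 on scaled values. In the F1 fit, 2 genes were higher in the tassel. That became 1 on values as deposited, 4 with equal library totals, 0 with a pseudocount of 0.1, 300 without the low-value filter, 1 with 1 or more in at least 6 libraries, and 0 against only the other 8 meristem, ear and tassel tissues. All 11 members entered the F1 fit without the filter, and 2 to 6 entered under the other settings. The number of members called is thus not comparable between these settings. In the fit of the F1 and Mo17 tassels, the 12 higher genes became 3 with a pseudocount of 0.1, 38 without the filter and 1 to 2 with 1 tassel library left out. Against only the other 8 tissues of that class there were 95 higher and 48 lower. That pair of counts became 42 higher with a pseudocount of 0.1, and 1 to 22 higher and 0 to 18 lower with 1 tassel library left out. Within that class, F1 alone gave 0 lower genes, and 3 with a pseudocount of 0.1. The replicate block was the term for line; without the replicate block the count of higher genes was again 12. The log2 difference of Zm00001d003304 was 0.48 with a range of -0.063 (without F1 1 cm tassel) to 1.01 (without Mo17 1 cm tassel) when 1 tassel library was left out, a reversed sign in the first case. The scaling moved the median log2 difference of all genes in the F1 fit, which was 0.03 scaled, 0.40 as deposited and 0.56 with equal totals. The causes were not tested. The planned circRNA fit and its alternatives were not run, because no member hosts a circRNA of the deposited catalogues, the F1 table or the back-splice table.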

Other observations

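Applied to the other lines, the rule was met by 5 genes in F1 (0.00777%) and 13 in Mo17 (0.0372%), and their values are a description, since the rule used them. Of the 5 in F1, 2 are among the 11 B73 genes, and the other 3 also met the rule in Mo17. All 3 have identifiers of the Mo17 genome alone. Zm00014a038636 stood at 150 in the F1 1 cm tassel and 589 in the Mo17 one, with the 2 mm tassel next at 13.6 in F1 and 41.4 in Mo17. Zm00014a015562 stood at 41.4 in the F1 and 56.04 in the Mo17 tassel, and Zm00014a038924 at 15.6 in F1 and 51.1 in Mo17. Of the 13 genes, 1 is paired with a B73 gene, Zm00001d039301. It stood at 181 in the F1 tassel, 845 in the Mo17 tassel and 19.03 in the B73 tassel, while SAM(V1) held 137, 156 and 36.04 in the same lines. In B73 the meristem, not the tassel, was thus the higher of these tissues for that gene.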
